A study of Mus musculus with 60 samples.

Results

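Genes for 10 subunits of the SWI/SNF chromatin remodelling complex were followed through mouse preimplantation development after fertilisation or nuclear transfer (NT). They were taken from the deposited expression table by gene symbol, and all 10 were present among its 27238 genes. The choice was made with earlier results of these data known. SWI/SNF complexes use the energy of ATP to slide or evict nucleosomes, and so open DNA to transcription factors. Each complex carries a single ATPase, either BRG1 (gene Smarca4) or BRM (Smarca2), with core subunits. Among their targeting subunits, canonical BAF complexes have either ARID1A or ARID1B, and PBAF complexes have PBRM1. Maternal BRG1 stored in the mouse oocyte is known to be needed for zygotic genome activation, the start of transcription from the embryo's own genome.

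RNA from 60 libraries was sequenced, 3 for each of 20 groups. In vivo embryos came from superovulated C57BL/6 females mated with DBA2 males, and received no activation, Scriptaid or culture. NTC embryos were enucleated oocytes of BDF1 females injected with a cumulus cell (CC) nucleus, NTM embryos the same oocytes injected with the nucleus of a serum-starved mouse embryonic fibroblast (MEF). By the study's methods, both NT groups were activated with strontium chloride, cytochalasin B and the histone deacetylase inhibitor Scriptaid and then cultured in vitro. In a comparison with in vivo embryos, the donor nucleus cannot be told apart from these treatments or from the strain of the oocyte. Single embryos were chosen by morphology at 6 stages, namely pronuclear (called 1-cell here), the cleavage stages of 2, 4 and 8 cells, morula, and what the labels call blastula, and CC and MEF, both BDF1, were sequenced as donor cells. The 3 libraries of an embryo group were separate embryos.

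Values are RPKM, the reads of a gene per kilobase of its exons and scaled to the library's reads on genes (the M of RPKM). Libraries held 5294167 to 47830132 reads on genes (median 15451429), donor libraries at least 31558141 and embryo libraries at most 26281508. For Smarca4, 3 reads corresponded to 0.00969 to 0.0875 RPKM. Among the 54 embryo libraries, the summed RPKM of 12 cumulus cell markers was at most 7.92 and that of 10 fibroblast markers at most 21.2. CC expressed 9 of the 12 cumulus markers at a mean of 1 RPKM or more (sums 650.2 to 1453), with Has2 and Lhcgr at 0 in all 3 libraries. MEF expressed all 10 fibroblast markers (sums 5183 to 7685) and 5 of the cumulus list (517.1 to 1231). The 9 oocyte markers summed to between 2213 and 5064 in 1-cell embryos, the 5 markers of 2-cell activation to between 39.1 and 1096 in in vivo, 119.4 and 236 in NTC and 5.62 and 83.5 in NTM 2-cell embryos (3 of the 5, Zscan4d, Zscan4c and Usp17lc, at 0 in all 3 NTM libraries), and the 10 markers of blastocyst lineages to between 300.8 and 1154 in blastulas. In vivo 1-cell replicate 1 had 9491 genes above 0, against 12187 and 12593 in its other replicates.

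The promoters of 4 members are shown because these genes moved in opposite directions at the 2-cell to 4-cell transition. The sequences are the RefSeq entries of build GRCm38.p6, written 5′ to 3′ on the gene's strand. They run from 250 bases before to 50 bases after the annotated start. Whether transcription started there in these embryos was not tested, and a window may hold transcribed sequence before that start. Capitals mark matches, on either strand, to the GC box GGGCGG or the ETS site CCGGAAG. Smarca4 and Smarcc1 were higher at the 4-cell stage of in vivo embryos than at the 2-cell stage.
Smarca4 (chr9:21615919-21616218, plus strand): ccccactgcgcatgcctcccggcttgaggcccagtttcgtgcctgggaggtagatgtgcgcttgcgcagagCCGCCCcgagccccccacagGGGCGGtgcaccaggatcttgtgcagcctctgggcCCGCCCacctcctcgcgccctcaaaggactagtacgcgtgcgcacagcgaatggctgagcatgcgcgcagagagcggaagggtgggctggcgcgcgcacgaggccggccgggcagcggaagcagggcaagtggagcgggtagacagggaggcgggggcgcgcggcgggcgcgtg
Smarcc1 (chr9:110131774-110132073, plus strand): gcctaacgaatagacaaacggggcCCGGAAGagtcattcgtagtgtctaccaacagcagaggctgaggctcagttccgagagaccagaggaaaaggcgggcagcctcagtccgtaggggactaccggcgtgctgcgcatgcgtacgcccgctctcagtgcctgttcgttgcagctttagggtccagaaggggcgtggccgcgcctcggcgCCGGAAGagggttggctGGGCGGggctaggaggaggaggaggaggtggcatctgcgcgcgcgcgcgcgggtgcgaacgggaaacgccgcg
Smarca2 and Arid1b were lower.
Smarca2 (chr19:26604910-26605209, plus strand): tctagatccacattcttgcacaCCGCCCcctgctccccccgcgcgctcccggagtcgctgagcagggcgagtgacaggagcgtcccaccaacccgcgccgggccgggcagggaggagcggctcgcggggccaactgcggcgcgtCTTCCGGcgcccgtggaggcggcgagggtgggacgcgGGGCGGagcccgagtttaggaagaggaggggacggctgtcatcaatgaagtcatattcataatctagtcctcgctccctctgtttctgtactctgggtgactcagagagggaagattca
Arid1b (chr17:4994824-4995123, plus strand): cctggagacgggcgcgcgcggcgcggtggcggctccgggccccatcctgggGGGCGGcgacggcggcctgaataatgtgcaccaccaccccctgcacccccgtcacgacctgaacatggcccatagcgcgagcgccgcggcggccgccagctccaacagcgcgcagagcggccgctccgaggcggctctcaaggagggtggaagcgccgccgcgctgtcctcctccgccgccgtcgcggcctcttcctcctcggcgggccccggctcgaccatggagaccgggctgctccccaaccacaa

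Entries were found for 9 of the 10 genes, 10 promoters in all since Arid1a had 2, and Smarce1 had none. All 10 held a GC box, as did 35.7% of the 32851 promoters of the table. Their GC content ran from 60.7% to 81%, against a median of 52.7%, and their CpG count from 22 to 48, against a median of 7. The ETS site was present once in Smarca2 and in 2 copies in Smarcc1 (8.86% of all promoters), and the E-box CACGTG in Pbrm1 alone (7.15%). No member promoter matched CCAAT (37.4% of all promoters) or TATAAA (13.6%) on either strand. The GC box was thus found in promoters of genes that rose and of genes that fell.

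Each of the 10 genes had reads in some libraries of every embryo type. Smarca4, Arid1a, Smarcb1, Smarcc1, Smarce1 and Pbrm1 were above 0 in all 60 libraries, whereas Smarcd1, a core subunit, was at 0 in 14, Smarcc2 in 4, Smarca2 in 3 and Arid1b in 2. The subunits did not peak together. Mean log2(RPKM + 1) over the 20 groups was highest in in vivo 4-cell embryos for Smarca4, Smarcc1 and Smarce1, in NTC 2-cell embryos for Smarca2 and Arid1a, in NTM 2-cell embryos for Arid1b, in NTC 1-cell embryos for Pbrm1, in NTM blastulas for Smarcd1, in MEF for Smarcb1 and in CC for Smarcc2. When the 20 groups were ordered by level, at most 2 of the 19 neighbouring pairs of any gene had libraries that did not overlap, so the finer order was not resolved by 3 libraries. The heat map of group means shows these peaks in different columns.

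**Figure D1:**
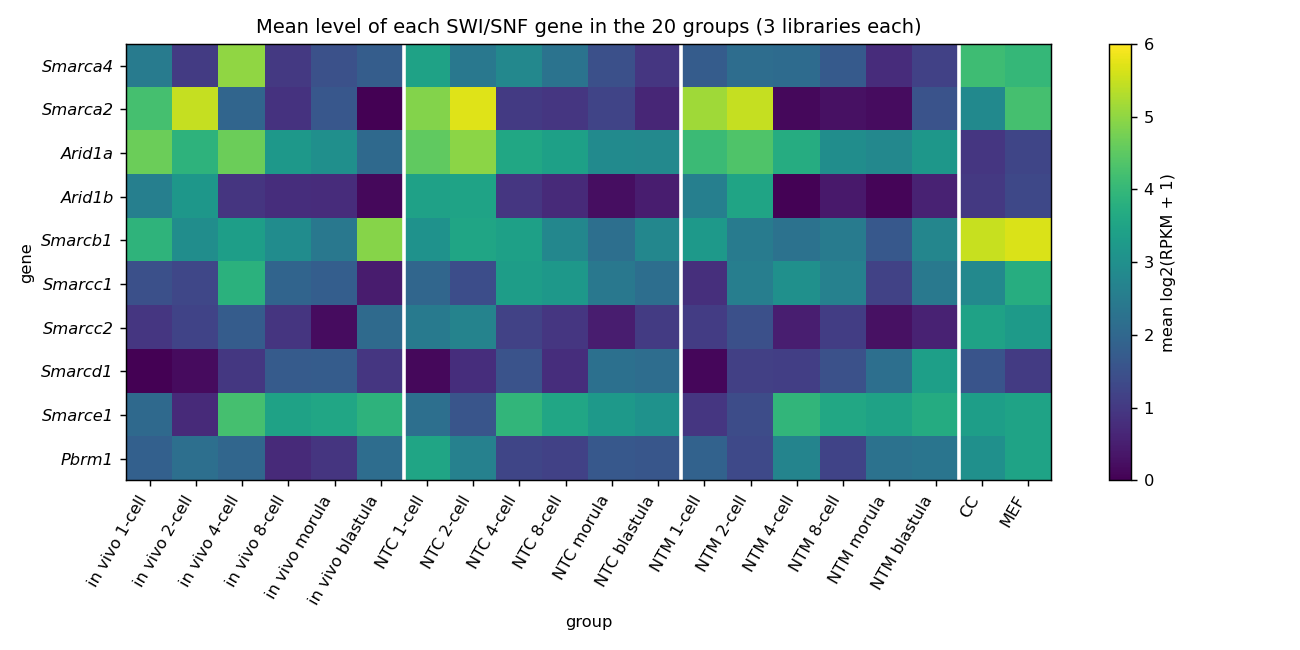
Mean log2(RPKM + 1) of the 10 genes (rows) in the 20 groups (columns, 3 libraries each), with white lines between in vivo, NTC and NTM embryos and donor cells. Smarca2 and Arid1b are brighter at the 1-cell and 2-cell stages than from the 4-cell stage on in all 3 embryo types, while Smarce1 is darker before the 4-cell stage than at it; Smarca4 is brightest in in vivo 4-cell embryos.

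Smarca4, the BRG1 ATPase, rose where in vivo embryos passed from 2 to 4 cells. The 3 in vivo 2-cell embryos had 5.12, 0.0556 and 0.336 RPKM, the second of these from 5 reads. The 3 in vivo 4-cell embryos had 33.7, 30.2 and 29.9 RPKM, from 2865, 2912 and 3161 reads. The 4-cell embryos were thus all above the 2-cell embryos and close to one another. NTC embryos had 3.1, 4.59 and 5.43 RPKM at the 2-cell stage and 3.93, 7.09 and 7.47 RPKM at the 4-cell stage. NTM embryos had 13.4, 3.03 and 0.474 RPKM at the 2-cell stage and 2.92, 0.885 and 9.47 RPKM at the 4-cell stage. In both NT types the ranges of the 2 stages overlapped.

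Smarca2, the BRM ATPase, was abundant in early embryos of every type and low from the 4-cell stage. In vivo embryos had 47.2, 32.2 and 53.1 RPKM at the 2-cell stage and 7.34, 1.67 and 1.65 RPKM at the 4-cell stage. NTC embryos went from 42, 45.5 and 71.1 RPKM to 0.454, 0.774 and 2.26 RPKM. NTM embryos went from 50.4, 50.2 and 32 RPKM to 0.161, 0.0912 and 0.0207 RPKM. No 4-cell embryo reached the lowest 2-cell embryo of its type. The plot of both ATPases by library shows these values beside the later stages, and from the 8-cell stage on Smarca2 was between 0 and 4.72 RPKM in all embryos.

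**Figure D2:**
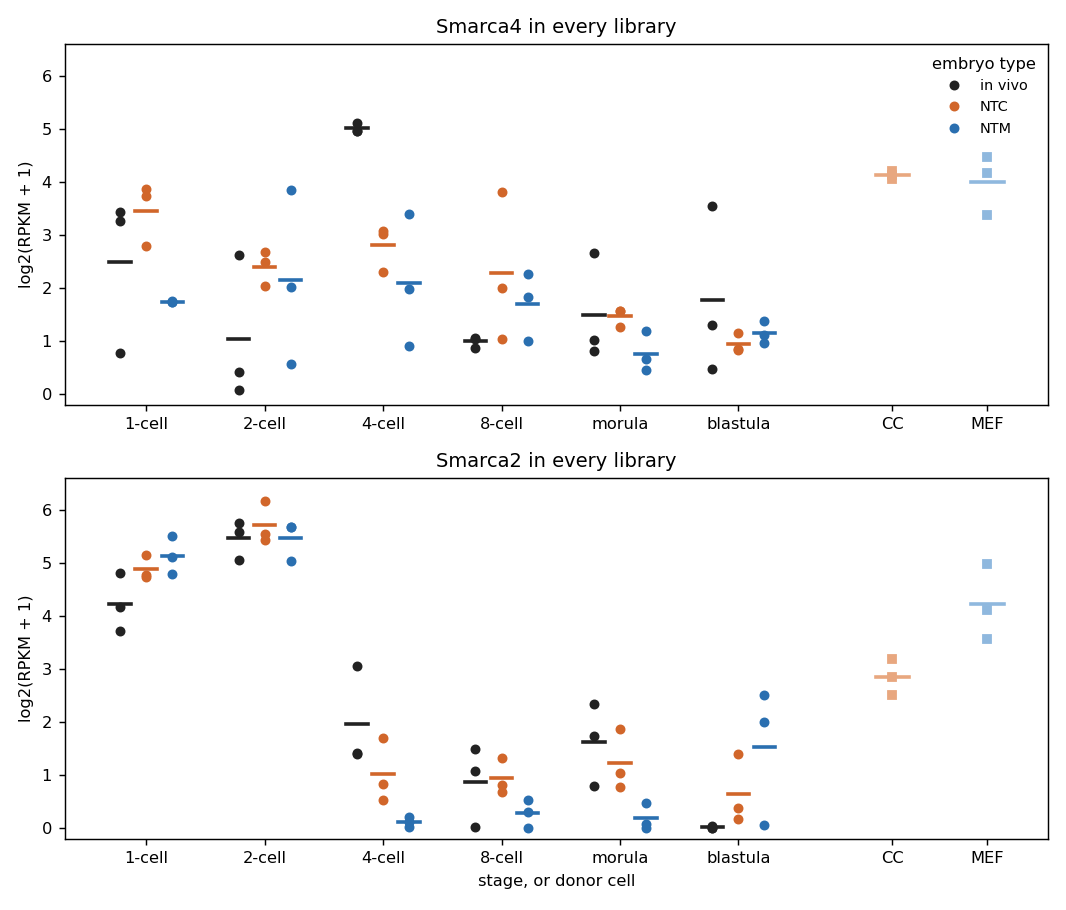
log2(RPKM + 1) of Smarca4 (top) and Smarca2 (bottom) in every library; circles are single embryos coloured by type, squares are donor cell libraries, bars are group means of 3. The 3 in vivo 4-cell embryos stand at the top of the Smarca4 panel at 29.9 to 33.7 RPKM, while the Smarca2 panel drops from 2-cell to 4-cell embryos in all 3 types.

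Which subunit genes changed as embryos left the 2-cell stage was tested with limma on log2(RPKM + 1), with Benjamini-Hochberg adjustment over all genes tested. A gene was called at an adjusted p under 0.05 and a difference of at least 1 on the log2 scale. In in vivo embryos 3 of 10 members rose, where 31.4% of the 12995 genes tested rose, and 2 fell, where 20.8% fell. The members' calls were therefore no more frequent than those of all genes, 52.2% of which were called in either direction. Smarca4 rose by 3.97 ± 0.67 (SE) on the log2 scale (limma, adjusted p = 0.00216), and Smarca2 fell by 3.51 ± 0.54 (adjusted p = 0.00139). All 5 member calls held in every alternative and without any single library.

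Smarce1, which encodes an HMG-domain core subunit, rose alongside. It had 1.42, 0.422 and 0.264 RPKM in in vivo 2-cell embryos and 15.4, 21.5 and 17.4 RPKM in in vivo 4-cell embryos, a difference of 3.53 ± 0.40 (limma, adjusted p = 0.000321). Smarcc1, a scaffold subunit, had 2.24, 2.68 and 0.193 RPKM and then 13.7, 9.5 and 17.6 RPKM, a difference of 2.55 ± 0.53 (adjusted p = 0.00547). Arid1b, the DNA-binding subunit that alternates with ARID1A, fell by 2.25 ± 0.37 (adjusted p = 0.00187), from 8.23, 7.28 and 8.77 RPKM to 0.543, 1.66 and 0.69 RPKM. For each of these 3 genes the 2-cell and 4-cell embryos did not overlap, as was so for 36.3% of all genes upward and 25.1% downward. Arid1a differed by 0.77 with an adjusted p of 0.227, and passed only without in vivo 2-cell replicate 1 (1.28, adjusted p = 0.0305).

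In NTC embryos 2 members rose (16.4% of 12324 genes) and 3 fell (20.1%) at the same transition. Smarca2 fell by 4.69 ± 0.49 (limma, adjusted p = 0.000319) and Arid1b fell by 2.53 ± 0.50 (adjusted p = 0.0052). Smarce1 rose by 2.37 ± 0.53 (adjusted p = 0.00875). These 3 calls held without any single library. Arid1a, which had 33.6, 30.9 and 26.5 RPKM at the 2-cell stage and 11.4, 12.6 and 8.79 RPKM at the 4-cell stage, fell by 1.40 ± 0.39 (adjusted p = 0.0224), a call lost without NTC 2-cell replicate 2 (adjusted p = 0.0538) or NTC 4-cell replicate 3 (0.0604). Smarcc1 rose by 1.94 ± 0.60 (adjusted p = 0.0339), and 5 of the 6 libraries could each not be spared (adjusted p 0.0504 to 0.11, the exception being NTC 2-cell replicate 3). That call also ended with a pseudocount of 0.1 (adjusted p = 0.0603) or no filter on low values (0.127), and the Arid1a call with mitochondrial reads left out of the total (-1.06, adjusted p = 0.0752). The PBAF gene Pbrm1 differed by -1.40 (adjusted p = 0.0627), and by -1.74 without NTC 4-cell replicate 2 (adjusted p = 0.0428). Smarca4 differed by 0.40 ± 0.47 (adjusted p = 0.512).

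In NTM embryos 1 member rose (12.1% of 11742 genes) and 2 fell (14.3%). Smarca2 fell by 5.35 ± 0.59 (limma, adjusted p = 0.00075) and Arid1b fell by 3.47 ± 0.62 (adjusted p = 0.00487), and both held without any single library. The Arid1b values were 16.1, 10.8 and 6.41 RPKM at the 2-cell stage and 0.0182, 0.0244 and 0.056 RPKM at the 4-cell stage. Smarce1 rose by 2.55 ± 0.76 (adjusted p = 0.0369), but was called only with all libraries or without NTM 4-cell replicate 3 (adjusted p 0.0885 to 0.107 without any other), and not with no filter (0.122) or median-ratio scaling (0.0537). Smarca4 differed by -0.05 ± 0.99 (adjusted p = 0.974), and the sign turned without NTM 2-cell replicate 1 (0.81), NTM 4-cell replicate 1 (0.01) or NTM 4-cell replicate 2 (0.54).

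**Figure D3:**
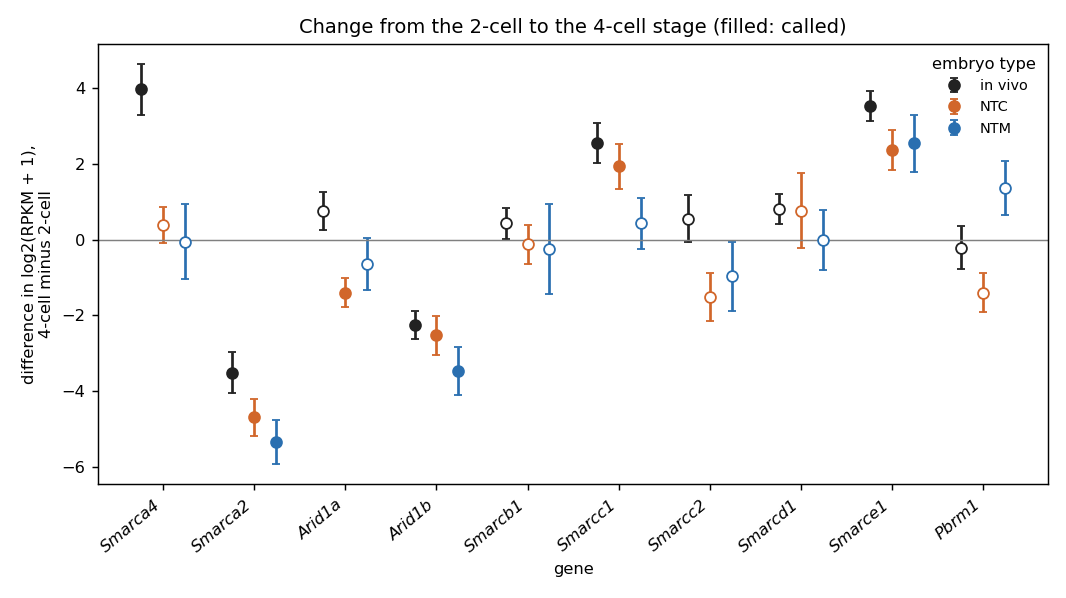
Difference in log2(RPKM + 1) between 4-cell and 2-cell embryos for each gene (points, with the limma standard error as bars), by embryo type; filled points are called. Smarca2 and Arid1b lie below 0 and filled in all 3 types, and Smarca4 is filled in in vivo embryos at 3.97 and open near 0 in NTC (0.40) and NTM (-0.05) embryos.

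Whether the 2-cell to 4-cell change itself differed from that of in vivo embryos was tested as an interaction. For NTC embryos 2 members were called, both with a lower change than in vivo (12% of 13221 genes were called lower and 2.38% higher). The Smarca4 change was lower by 3.57 on the log2 scale (-3.57 ± 0.83, limma, adjusted p = 0.0124), with adjusted p between 0.000829 and 0.0405 over all alternatives and single libraries left out. The Arid1a change was lower by 2.17 (-2.17 ± 0.63, adjusted p = 0.0359). The latter call was lost without any single library other than in vivo 2-cell replicate 1 (adjusted p 0.0508 to 0.0842), and in 4 alternatives (0.0501 to 0.0954). All 10 members had a negative estimate, with a median of -1.17 against -0.41 for all genes tested, and the smallest was that of Smarcd1 (-0.05). The 10 estimates came from the same libraries, and the share of all genes with a negative estimate was not counted.

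For NTM embryos no member was called by limma in this interaction (8.05% of 13062 genes were called lower and 9.91% either way). An unadjusted p under 0.05 was found for 3 members and for 3116 of the 13062 genes. The Smarca4 estimate was -4.02 ± 1.28 (adjusted p = 0.0688), and it passed without in vivo 2-cell replicate 1 (adjusted p = 0.0353), NTM 2-cell replicate 3 (0.0318) or NTM 4-cell replicate 3 (0.04). Smarcc1 was at -2.11 ± 0.84 and Smarca2 at -1.84 ± 0.75 (adjusted p = 0.142 and 0.156). Only Pbrm1, at 1.58 ± 0.89, had a positive estimate. The NTC and NTM interactions share the 6 in vivo libraries.

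At the 4-cell stage itself, NTC embryos were lower than in vivo embryos in 2 of 10 members, where 20.4% of 11457 genes were lower. Smarca4 was lower by 4.62-fold on the log2(RPKM + 1) scale (-2.21 ± 0.36, limma, adjusted p = 0.00221), with 3.93 to 7.47 RPKM in NTC against 29.9 to 33.7 RPKM in in vivo embryos. This call held in every alternative and without any single library, with differences from -1.78 to -2.38. Arid1a had 28.5, 19.9 and 25 RPKM in in vivo and 8.79 to 12.6 RPKM in NTC embryos, with no overlap (-1.09 ± 0.33, adjusted p = 0.0393). Its call ended with median-ratio scaling (-0.66, adjusted p = 0.188), with mitochondrial reads left out of the total (-0.66, adjusted p = 0.208), in the fit over all 20 groups (0.132), and without any in vivo 4-cell replicate (adjusted p 0.0697 to 0.116) or NTC 4-cell replicate 3 (0.0833). Each library was a whole embryo, and RPKM is a share of its reads, not an amount of RNA per cell.

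NTM embryos at the 4-cell stage were lower than in vivo embryos in 1 of the 9 members tested (17.8% of 11143 genes were lower), and this comparison shares its in vivo libraries with the preceding one. Smarca4 was lower by 7.56-fold (-2.92 ± 0.66, limma, adjusted p = 0.0188), with 0.885 to 9.47 RPKM, all below the lowest in vivo embryo. The call was lost with no filter on low values (adjusted p = 0.0937) and without in vivo 4-cell replicate 1 (0.0822), 2 (0.0814) or 3 (0.0771), at differences of -2.86 to -2.95. Smarca2, with 0.0207 to 0.161 RPKM in NTM and 1.65 to 7.34 RPKM in in vivo embryos, also did not overlap (-1.84 ± 0.58, adjusted p = 0.0585). Nor did Arid1a, with 8.02 to 15.3 RPKM in NTM and 19.9 to 28.5 RPKM in in vivo embryos, which was not called. The share of all genes without overlap was not listed for either 4-cell comparison. Pbrm1 was without overlap in the other direction, with 4.64 to 6.13 RPKM in NTM and 2.68 to 3.52 RPKM in in vivo embryos (0.72 ± 0.48, adjusted p = 0.316). Arid1b, at 0.0182 to 0.056 RPKM in NTM and 0.543 to 1.66 RPKM in in vivo embryos, stayed under the filter on low values and was not tested.

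The libraries of these groups also differed in other measures, whose part in the results was tested only as far as the alternatives go. Mitochondrial reads made up 5.68% to 8.87% of the reads on genes in in vivo 4-cell embryos, 31.6% to 34.7% in NTC and 29.6% to 40.4% in NTM 4-cell embryos. In vivo 4-cell embryos had 13576 to 13932 genes above 0, NTC 10824 to 11929 and NTM 8997 to 10930. The median of all genes was -0.39 in NTC and -0.69 in NTM against in vivo. With mitochondrial reads left out of the library total these medians were -0.06 and -0.38, the share of called genes that were higher went from 26.6% to 41.5% and from 15.8% to 29.5% (41.1% and 36.8% with median-ratio scaling), and the Smarca4 differences were -1.81 (adjusted p = 0.0085) and -2.56 (adjusted p = 0.0437).

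**Figure D4:**
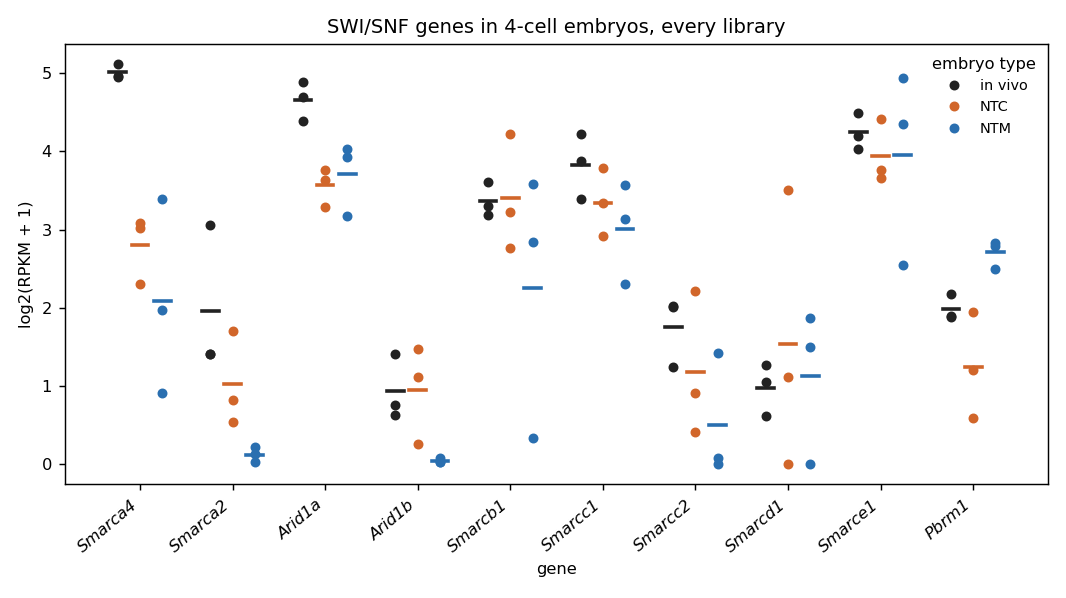
log2(RPKM + 1) of the 10 genes in every 4-cell embryo, coloured by embryo type, with bars for the means of 3. The 3 in vivo embryos lie above all NT embryos for Smarca4 and Arid1a (19.9 to 28.5 RPKM for Arid1a in vivo), while Smarcb1, Smarcc1, Smarcd1 and Smarce1 overlap between types.

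After the 4-cell stage, Smarca4 fell again in in vivo embryos. The 8-cell embryos had 1.09, 1.06 and 0.825 RPKM, all far below the 4-cell embryos, a fall by 4.02 on the log2 scale (-4.02 ± 0.33, limma, adjusted p = 0.000111) that held in every alternative and without any single library. In total 4 members fell at this step, where 39.3% of 10417 genes fell and the median of all genes was -1.05. The others were Arid1a (-1.46), Smarcc1 (-1.91) and Pbrm1 (-1.27), with adjusted p of 0.0304, 0.0276 and 0.0244. With median-ratio scaling, under which 41.8% of called genes were higher in place of 10.1%, these 3 differed by -0.15, -0.74 and -0.47 (adjusted p = 0.785, 0.351 and 0.37), and Smarca4 by -2.92 (adjusted p = 0.00103). Without single libraries the calls of Arid1a and Smarcc1 were each lost in 5 of 6 cases (adjusted p 0.0624 to 0.099 and 0.0566 to 0.104; both kept only without in vivo 8-cell replicate 1), and that of Pbrm1 without in vivo 4-cell replicate 3, 8-cell replicate 2 or 8-cell replicate 3 (0.056 to 0.0645). Smarcd1 differed by 0.75 (adjusted p = 0.406), and by 1.59 without in vivo 8-cell replicate 2 (adjusted p = 0.0306). The mitochondrial share was 32.1% to 45% in in vivo 8-cell embryos, and with mitochondrial reads left out of the total only the Smarca4 call remained (-3.74, adjusted p = 0.000299).

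No member was called by limma in the other 11 transitions, and 9 gene tests there had an unadjusted p under 0.05. Among all genes this ran from 615 of 10854 (in vivo, 1 to 2 cells) to 3491 of 11915 (NTC, 1 to 2 cells). Of all genes, 0% were called from 1 to 2 cells, 0.0116% from 8 cells to morula and 0.801% from morula to blastula in vivo. The same shares with the step from 4 to 8 cells in second place were 13.5%, 0.0564%, 0% and 7.16% for NTC and 9.4%, 0.363%, 0% and 4.22% for NTM. In NTC embryos from the 1-cell to the 2-cell stage, where 13.5% of 11915 genes were called, Smarca2 differed by 0.83 (adjusted p = 0.091), Smarca4 by -1.06 (adjusted p = 0.132) and Pbrm1 by -0.88 (adjusted p = 0.134). From morula to blastula in NTM embryos, Smarca2 differed by 1.34 (adjusted p = 0.239), and by 2.07 without NTM blastula replicate 3 (adjusted p = 0.0417).

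Smarca4 and Smarca2 encode alternative ATPases, and their log2 ratio (of RPKM + 1) changed sign from the 2-cell to the 4-cell stage in every embryo type. In vivo it was -2.98, -4.98 and -5.34 at the 2-cell stage and 2.06, 3.55 and 3.55 at the 4-cell stage. In NTC embryos it went from -3.39, -3.06 and -3.49 to 1.76, 2.19 and 1.38. In NTM embryos it went from -1.83, -3.67 and -4.49 to 1.76, 0.79 and 3.36. By RPKM, all 9 embryos had more Smarca2 at the 2-cell stage and all 9 more Smarca4 at the 4-cell stage. In in vivo embryos the changes of both genes were called, whereas in NT embryos only that of Smarca2 was. The direct test of the Smarca4 change against in vivo was called for NTC but not for NTM embryos. The ratio was 1.02, 1.55 and 1.28 in CC and 0.90, -0.74 and -0.81 in MEF.

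Arid1a and Arid1b encode alternative DNA-binding subunits. Their log2 ratio was positive in all 54 embryos, from 0.09 to 1.70 in in vivo 2-cell embryos and from 2.98 to 4.26 in in vivo 4-cell embryos. In NTC embryos it was 1.32 to 1.59 and then 1.81 to 3.50, and in NTM embryos 0.41 to 1.17 and then 3.15 to 3.95. The donor cells lay around 0, from -0.61 to 0.39 in CC and from -1.03 to 1.17 in MEF. For the scaffold genes Smarcc1 and Smarcc2, the ratio was positive in all 9 embryos of the 4-cell stage (0.88 to 3.49). In blastulas it was -2.57, -2.56 and 0.28 in vivo, 0.82 to 1.32 in NTC and 1.54 to 2.41 in NTM. The in vivo blastulas had low values, with Smarcc1 at 0.0298 to 1.06 RPKM and Smarcc2 at 0 to 11.2 RPKM. They also had only 7730 to 7808 genes above 0. These ratios are descriptions and were not tested. They also depend on the exon lengths behind the RPKM, which for Smarca2 and Smarcc2 were shorter than those of GENCODE M21. Where a gene is near 0 they depend on the pseudocount as well. With 0.1 in place of 1, Arid1a over Arid1b in 4-cell embryos was 3.51 to 5.48 in vivo, 2.24 to 5.40 in NTC and 6.10 to 6.85 in NTM.

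**Figure D5:**
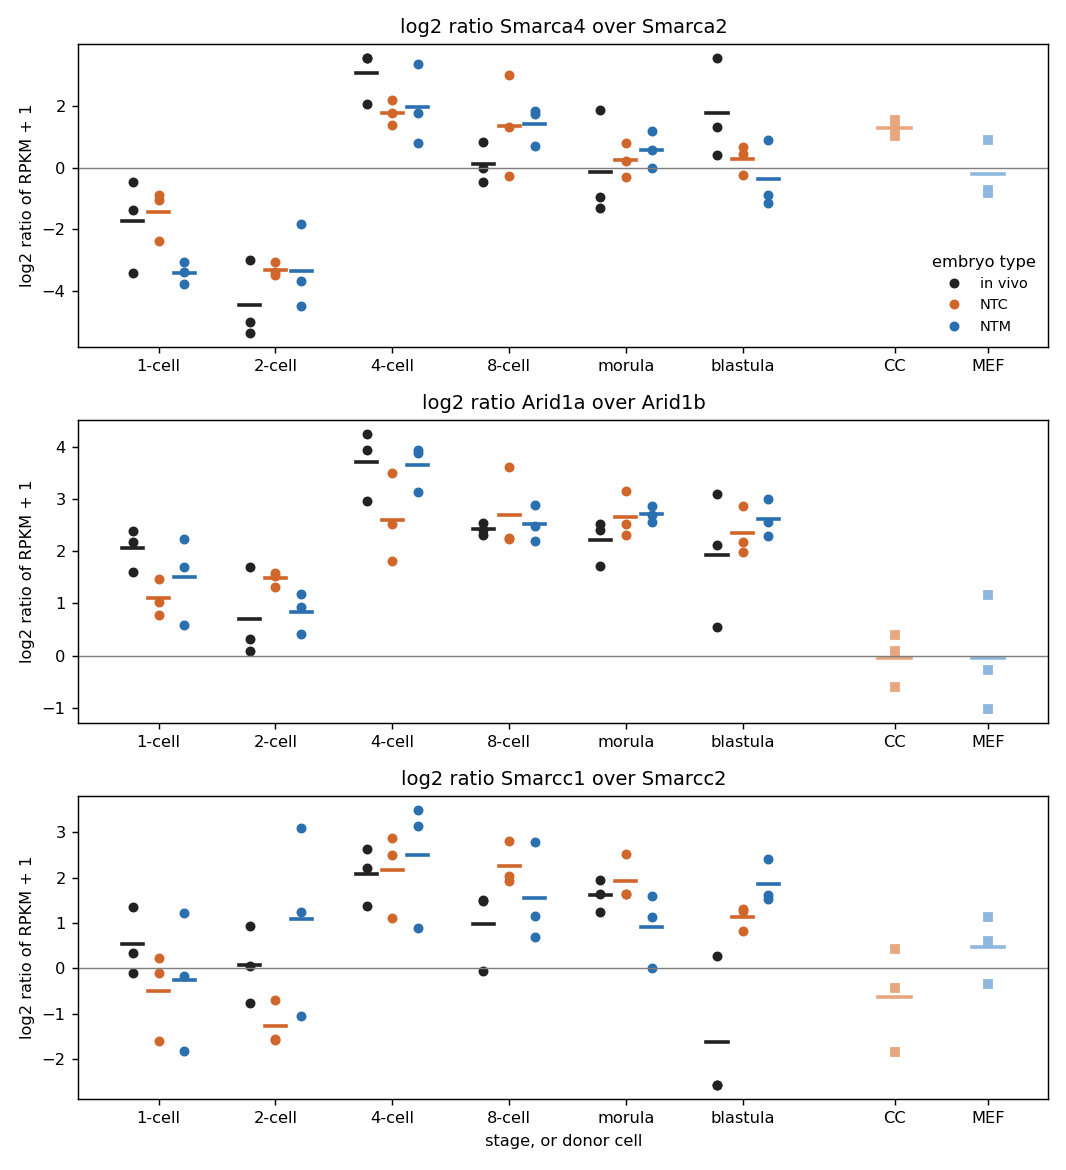
log2 ratio of (RPKM + 1) for 3 pairs of alternative subunits in every library. Circles are embryos by type, squares are donor cells, bars are means of 3 and the grey line marks equal RPKM. The top panel passes from below 0 at the 2-cell stage to above 0 at the 4-cell stage in all 3 types; the lower panels show Arid1a over Arid1b above 0 in all embryos, and Smarcc1 over Smarcc2 below 0 in 2 of 3 in vivo blastulas.

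No member was called by limma between NT and in vivo embryos at the blastula stage, with 8 members tested in NTC (9.46% of 9288 genes called) and 9 in NTM (0.746% of 9380 genes). Each comparison had 2 members at an unadjusted p under 0.05, as had 2684 of 9288 genes in NTC and 2458 of 9380 in NTM. Smarcb1, a core subunit that contacts the nucleosome, had 7.97, 53.7 and 53.4 RPKM in in vivo blastulas and 5.15 to 6.33 RPKM in NTC blastulas (-2.12 ± 0.85, limma, adjusted p = 0.152). Without in vivo blastula replicate 1, which lay close to the NTC values, the difference was -2.98 (adjusted p = 0.0312). Smarcc1 had 1.06, 0.0298 and 0.211 RPKM in vivo, 2.76 to 4.35 RPKM in NTC (1.72 ± 0.51, adjusted p = 0.0734) and 4.22 to 4.64 RPKM in NTM (1.98 ± 0.58, adjusted p = 0.0836). Smarcd1 had 0.0202, 0.111 and 5.44 RPKM in vivo and 8.85 to 10.6 RPKM in NTM (2.42 ± 0.87, adjusted p = 0.13).

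A fit over all 20 groups, in which the groups share an estimate of the spread, called 2 members in NTC blastulas (Smarcb1 and Smarcc1) and 4 in NTM blastulas (Smarca2, Smarcb1, Smarcc1 and Smarcd1). Smarca2 was at 0, 0.0298 and 0 RPKM in in vivo and at 4.72, 3 and 0.0431 RPKM in NTM blastulas (1.51, adjusted p = 0.194), and passed without NTM blastula replicate 3 (2.24, adjusted p = 0.0255). In vivo blastulas had 7730 to 7808 genes above 0, against 11498 to 13568 in NT blastulas, and their replicates correlated at 0.699 to 0.707 over genes, against 0.894 to 0.936 in NT blastulas. The part of this lower number of detected genes in the member values was not tested.

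At the other stages (1-cell, 2-cell, 8-cell and morula) no member was called between NT and in vivo embryos by limma. The shares of all genes called, in the order of the stages, were 1.16%, 0.152%, 1.46% and 0.0321% for NTC and 1.28%, 0.141%, 2.02% and 0.168% for NTM embryos. Before adjustment 4 gene tests passed 0.05. Among all genes this ran from 1097 of 11822 (NTC, 2-cell) to 2517 of 10834 (NTC, 1-cell). In 1-cell embryos Smarca4 was at 0.71, 8.65 and 9.79 RPKM in vivo and at 2.35, 2.35 and 2.34 RPKM in NTM embryos (-0.75, adjusted p = 0.648). Without in vivo 1-cell replicate 1, the library with the fewest genes above 0 in its group, it differed by -1.61 (adjusted p = 0.0437). At the morula stage Smarca2 had 4.04, 0.738 and 2.35 RPKM in vivo and 0.0601, 0.00663 and 0.39 RPKM in NTM embryos. It was not called there (-1.44 ± 0.60, limma, adjusted p = 0.488).

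Between NT embryos of the 2 donor types, members differed at the 1-cell stage. Smarca4 had 5.89, 13.5 and 12.3 RPKM in NTC 1-cell embryos, above the 2.34 to 2.35 RPKM of NTM 1-cell embryos (-1.72 ± 0.36 in NTM against NTC, limma, adjusted p = 0.0104). Pbrm1, the bromodomain subunit of PBAF, had 7.65, 13.2 and 11.4 RPKM in NTC and 3.81, 1.87 and 2.63 RPKM in NTM (-1.64 ± 0.34, adjusted p = 0.01). Smarce1 had 3.73, 4.47 and 2.63 RPKM in NTC and 0.637, 1.27 and 0.966 RPKM in NTM (-1.23 ± 0.35, adjusted p = 0.0339). These were 3 of 9 members tested, where 14.2% of 10799 genes were lower in NTM, and the groups did not overlap for any of the 3 (25.6% of genes did not overlap downward). The median of the tested members was -1.19, against -0.19 for all genes tested. The libraries also differed in other measures. NTC 1-cell libraries had 14021 to 14270 genes above 0 and NTM 12097 to 12346. Mitochondrial shares were 4.78% to 6.78% and 2.92% to 4.19%, and oocyte markers summed to 3024 to 3514 and 4733 to 5064 RPKM. The part of these measures in the member values was tested only as far as the alternatives go.

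These calls at the 1-cell stage depended on the libraries and the fit. Without NTC 1-cell replicate 2 or without NTC 1-cell replicate 3, none remained (for Smarca4, adjusted p = 0.0565 and 0.0598; for Pbrm1, 0.0551 and 0.0548; for Smarce1, 0.116 and 0.0686). The Smarce1 call was also lost without NTC 1-cell replicate 1 (0.0927), NTM 1-cell replicate 1 (0.0859) or NTM 1-cell replicate 3 (0.0677). Without NTM 1-cell replicate 2, Arid1b (-1.15, adjusted p = 0.0309) and Smarcc2 (-1.92, adjusted p = 0.0201) passed as well, and without NTM 1-cell replicate 3, Smarcc1 (-1.73, adjusted p = 0.0276). With no filter on low values or with the fit over all 20 groups, none passed (adjusted p 0.0549 to 0.267). From the 2-cell stage to the blastula no member was called between NTM and NTC embryos, where 0% of genes (0.0507% at the 8-cell stage) were called. An unadjusted p under 0.05 was found in 3 gene tests. Among all genes this ran from 315 of 10187 (blastula) to 1534 of 9186 (morula).

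The donor cells were compared with each other and with the 1-cell embryos made from them. No member was called between MEF and CC (10 tested, 6.29% of 11978 genes called). Of all genes, 2192 had an unadjusted p under 0.05, and of the members 1. This was Smarca2, with 10.9, 16.3 and 30.6 RPKM in MEF and 8.1, 4.67 and 6.2 RPKM in CC (1.38 ± 0.60, limma, adjusted p = 0.27), which passed in the fit over all 20 groups (adjusted p = 0.0476). Smarca4 was at 21.2, 9.41 and 17 RPKM in MEF and 17.5, 15.6 and 16.5 RPKM in CC, and Smarcb1 at 59, 53.9 and 38.4 RPKM and 50.1, 40.2 and 43.6 RPKM.

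Compared with their donor cells, 1-cell NT embryos were higher in both ARID1 genes and lower in Smarcb1. In NTC 1-cell embryos against CC, 3 members were higher (29.3% of 12819 genes) and 1 was lower (20.8%). Arid1a had 21.3, 22.2 and 22.9 RPKM in NTC 1-cell embryos and 0.0793, 2.18 and 1.15 RPKM in CC (3.57 ± 0.44, limma, adjusted p = 0.00112). Smarca2 (2.04 ± 0.29, adjusted p = 0.00208) and Arid1b (2.43 ± 0.50, adjusted p = 0.00854) were also higher, and Smarcb1 was lower (-2.46 ± 0.24, adjusted p = 0.000438), with 6.21 to 8.06 RPKM in embryos. Without CC replicate 1, Smarcd1 (-2.20, adjusted p = 0.00371) and Smarce1 (-1.66, adjusted p = 0.00654) passed too, and without CC replicate 2, Smarcc1 (-1.47, adjusted p = 0.0286).

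In NTM 1-cell embryos against MEF, 2 members were higher (25.2% of 13082 genes) and 6 were lower (29.9%). Arid1a was higher, with 20.1, 12.9 and 16.1 RPKM in NTM 1-cell embryos and 0.68, 1.31 and 2.47 RPKM in MEF (2.85 ± 0.38, limma, adjusted p = 0.000708). The lower genes were Smarcc1 (-2.93), Smarce1 (-2.51), Smarcb1 (-2.41), Smarca4 (-2.26), Smarcc2 (-2.20) and Pbrm1 (-1.60), with adjusted p from 0.000371 to 0.0144. Those of Smarcc2 and Pbrm1 were each lost without 1 of 2 NTM 1-cell libraries (replicates 1 and 3 for Smarcc2, adjusted p = 0.0596 and 0.0617; replicates 2 and 3 for Pbrm1, 0.0561 and 0.0517). Arid1b was higher by 1.29 ± 0.45 (adjusted p = 0.0454), a call kept only without MEF replicate 1 (adjusted p 0.0641 to 0.138 without any other library) and lost with a pseudocount of 0.1 (0.0578) or no filter (0.126), as was that of Smarcc2 with no filter (0.0601). Smarca2 passed without MEF replicate 3 (1.30, adjusted p = 0.025) and Smarcd1 without MEF replicate 1 (-1.30, adjusted p = 0.0279). These comparisons set an oocyte cytoplasm with a new nucleus against somatic cells, and the mitochondrial share was 2.92% to 6.78% in 1-cell NT embryos and 2.19% to 3.26% in donor cells.

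The remaining genes of the complex gave a wider view of the 2-cell to 4-cell step. Of 18 further SWI/SNF genes, 14 could be tested in in vivo embryos; 4 rose and 1 fell (2 and 0 with no filter on low values), where 31.4% of all genes tested rose and 20.8% fell. Brd9, the bromodomain subunit of non-canonical BAF, rose by 4.68 ± 0.92 (limma, adjusted p = 0.00429), from 0.0897 to 11.4 RPKM in 2-cell embryos to 56.5 to 71 RPKM in 4-cell embryos. Dpf2, a PHD-finger subunit of BAF, rose by 3.91 ± 0.46 (adjusted p = 0.000379). Their median was -0.15, against 0.66 for the 10 members and 0.36 for all genes. Of 25 genes of other remodellers, 21 were tested; 6 rose and 1 fell, with a median of 0.74. Neither list had a larger share of rising genes than all genes. The most changed were Ruvbl1 and Ruvbl2, the ATPases shared by INO80 and SRCAP complexes (5.65 ± 0.70 and 2.98 ± 0.46), and Chd1 (2.56 ± 0.34). The calls of these 5 named genes held in every alternative and without any single library.

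In NT embryos these genes were tested against in vivo embryos at the same 2 stages as above. At the 4-cell stage, Arid2, the ARID subunit of PBAF, was higher in NTC (11.6 to 13.1 RPKM) than in in vivo embryos (1.77 to 2.88 RPKM; 2.08 ± 0.39, limma, adjusted p = 0.00434), the single call among 14, and none of 14 was called in NTM. Of the other remodellers, 4 of 22 were lower in NTC (1 with no filter; 20.4% of all genes were lower), with Ruvbl2 (-2.33 ± 0.44, adjusted p = 0.00452), the histone variant loader Atrx (-2.12 ± 0.48, adjusted p = 0.0113) and Baz2a (-1.74 ± 0.35, adjusted p = 0.00599) the most changed, and 1 of 21 in NTM (Atrx, -1.88 ± 0.56, adjusted p = 0.048). The NTM call of Atrx was lost with a pseudocount of 0.1, no filter, median-ratio scaling or mitochondrial reads left out, and without every library but NTM 4-cell replicate 3 (adjusted p 0.0592 to 0.176), and the NTC call with no filter (0.075) or without in vivo 4-cell replicate 3 (-1.80, adjusted p = 0.0649). The Ruvbl2 call was lost with no filter (0.0537) and the Baz2a call in the fit over all 20 groups (0.106).

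In blastulas, 4 of 12 further SWI/SNF genes were higher in NTC than in vivo, where 9.46% of 9288 genes were called and 93.1% of those were higher. They were the actin-related subunit gene Actl6a (3.55 ± 0.60, limma, adjusted p = 0.0267), Brd9 (3.30 ± 0.65, adjusted p = 0.032), the PBAF bromodomain gene Brd7 (2.80 ± 0.64, adjusted p = 0.0406) and Bicral (adjusted p = 0.0494), which was listed at 0 in all 3 in vivo and at 1.19 to 2.86 RPKM in NTC blastulas. None of the 4 passed with median-ratio scaling (adjusted p 0.054 to 0.0772), under which 51.5% of called genes were higher, or without NTC blastula replicate 2 (adjusted p 0.0722 to 0.109). With no filter on low values only Actl6a passed (adjusted p 0.0693 to 0.12 for the others). Only 1 passed without NTC blastula replicate 1 and 1 without in vivo blastula replicate 3. None of 11 was called in NTM blastulas (3 with a pseudocount of 0.1 or mitochondrial reads left out, 4 without NTM blastula replicate 3), and none of 19 other remodellers in either. None of the 15 further SWI/SNF genes or 22 other remodellers tested was called between MEF and CC. At an unadjusted p under 0.05 these counts were 6 (NTM 4-cell), 4 (NTM blastula), 4 and 2 (remodellers in NTC and NTM blastulas), and 0 and 0 (donors). Among all genes they were 4024 of 11143 (NTM 4-cell), 2684 of 9288 and 2458 of 9380 (NTC and NTM blastulas), and 2192 of 11978 (donors).

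Over the 20 group means, Smarca2 and Arid1b followed each other most closely among the members (Pearson r = 0.95), and both ran opposite to Smarce1 (r = -0.85 and -0.87). Smarcb1 and Smarcc2, which were highest in donor cells, correlated at 0.83. These values are descriptions over groups that share libraries of the same embryo types and stages. Among 11409 genes with a mean of at least 1 RPKM, the pattern of Smarca4 was most like those of Ehmt1 (0.906), Spout1 (0.902) and Dolk (0.902). That of Smarca2 was most like Jazf1 (0.966), Sipa1l1 (0.964) and Ddx58 (0.964), and that of Arid1a most like Casp8ap2 (0.938), Usp7 (0.937) and Klf17 (0.921).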

How the data were processed

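The authors amplified cDNA of single embryos by tailing and PCR without molecular identifiers, removed redundant reads, aligned with TopHat to a UCSC reference and counted with HTSeq; the submitters' processing notes instead name Bowtie 0.12.2 and build mm8. RPKM values of 27238 genes were deposited and used as deposited. They came out as whole reads (within 0.02) for all 10 members, for 7 at the GENCODE M21 exon length. The others fitted a shorter length, namely Smarca2 (7854 nt against 14269), Smarcc2 (5027 against 5552) and Smarcd1 (3153 against 4026). Zero values and small read numbers carry counting error and any losses before or noise during amplification, which were not measured here.

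Groups followed the labels. limma 3.58.1 in R 4.3.3 (lmFit, eBayes with trend) was fitted to log2(RPKM + 1) of the compared groups, for genes with a mean of at least 0.5 RPKM there, with Benjamini-Hochberg adjustment over all genes. Fold changes on this scale understate those of low genes. The code was tested on simulated data, with changes placed only in genes of high mean level. Recovery at the low levels of several members was not tested. Summaries used Python 3.11.15, pandas 2.3.3 and numpy 2.4.6. The members, gene lists and tests were chosen with earlier results of these data known, so no list is independent evidence. The list of named genes was all 10 members, plus the further SWI/SNF genes called at the 4-cell and blastula stages or between donors (at most 6), at most 3 remodellers and the 3 most alike genes. Brd9 and Dpf2 at the 2-cell to 4-cell step were named after their values were seen. Alternatives were a pseudocount of 0.1, no filter, median-ratio scaling, mitochondrial reads left out of the total, a fit over all 20 groups, a replicate block and each replicate left out. Replicate numbers did not pair the samples.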

Additional observations from a re-analysis of the deposited data

Results flagged for a closer look

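Among 20 tests of whether a member's 2-cell to 4-cell change differed between NT and in vivo embryos, 2 passed, both for NTC embryos. Smarca4 rose in in vivo embryos and differed by 0.40 between the stages in NTC embryos, so that the change was lower by 3.57 on the log2 scale (-3.57 ± 0.83, limma, adjusted p = 0.0124). Arid1a fell in NTC embryos, and its change was lower than in vivo by 2.17 (-2.17 ± 0.63, adjusted p = 0.0359). Mitochondrial reads took 31.6% to 34.7% of NTC 4-cell libraries and 5.68% to 8.87% of in vivo 4-cell libraries; with these reads left out of the total, the Smarca4 difference was -3.28 (adjusted p = 0.0264) and that of Arid1a -1.78 (adjusted p = 0.0954).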

How the results depend on the processing

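The Smarca4, Smarcc1 and Smarce1 rises and the Smarca2 and Arid1b falls at the in vivo 2-cell to 4-cell step, the Smarca4 fall at the in vivo 4-cell to 8-cell step, and the lower Smarca4 of NTC 4-cell embryos kept their calls in every alternative and leave-out; the lower Smarca4 of NTM 4-cell embryos did not. Counts of called members moved as follows; the cause was not tested. With no filter on low values, the 12 other transitions went from 4 to 2, NTM against in vivo 4-cell embryos from 1 to 0, NTM against NTC 1-cell embryos from 3 to 0, and the interactions from 2 to 1. Median-ratio scaling gave 2 for the other transitions, 1 for NTC against in vivo 4-cell embryos and 1 for the interactions. Mitochondrial reads left out of the total gave 1, 1 and 1 for the same. A pseudocount of 0.1 gave 2 for NTM against in vivo 4-cell embryos. A fit over all 20 groups gave 1 for NTC and 2 for NTM 4-cell embryos, 2 for NTC and 4 for NTM blastulas, 0 for NTM against NTC 1-cell embryos, 1 for MEF against CC and 4 for the interactions. Among all called genes, median-ratio scaling moved the share that was higher from 75.7% to 11.1% in NTM against in vivo blastulas (70 and 18 genes called), from 60.4% to 25.4% and from 59.2% to 42.8% in NTC and NTM against in vivo 8-cell embryos, from 33.6% to 49.7% and from 28.9% to 48.4% at the NTC and NTM 1-cell to 2-cell step, and from 63.4% to 49.5% and from 88.2% to 48.3% at their morula to blastula step. Leaving out mitochondrial reads moved it from 16.6% to 26.9% for the NTC interaction.

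Without a single replicate, counts ranged from 1 to 5 in the other transitions, 5 to 6, 3 to 5 and 2 to 3 at the 2-cell to 4-cell step of in vivo, NTC and NTM embryos, 1 to 2 and 0 to 1 for NTC and NTM against in vivo 4-cell embryos, 0 to 1 for both NT types against in vivo blastulas, 0 to 1 at the other stages, 0 to 5 for NTM against NTC 1-cell embryos, 0 to 0 for NTM against NTC at later stages and for MEF against CC, 9 to 14 for 1-cell NT embryos against donors, and 1 to 3 for the interactions. Groups left with 2 embryos borrowed the spread of the pooled fit.

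With the replicate number as a block, 33 of 359 tests were called, against 37, and NTC against in vivo 4-cell embryos went from 2 to 1 (Arid1a, adjusted p = 0.0826), and the further SWI/SNF genes called in NTC blastulas from 4 to 0 (adjusted p 0.0994 to 0.148 for Actl6a, Brd9, Brd7 and Bicral) and Atrx in NTM 4-cell embryos was no longer called (0.0644). The numbers did not pair the samples, since same-numbered deviations correlated at -0.181 to 0.119 and in none of 36 comparisons were all 3 correlations over 0.1. Depth limits Smarcd1, Smarcc2 and Arid1b most, with median reads of 64, 103 and 184.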
